A study of Mus musculus with 19 samples.

Results

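The 5-hmC landscape of E14.5 cardiomyocytes (CMCs) was described from the 2 peak lists of that point, replicate 1 and replicate 2, out of 8 peak lists and 19 samples in the series. The members are the 15498 protein-coding genes on the 19 autosomes with a span of at least 5 kb in the mm10 assembly, of 20021 autosomal protein-coding genes with a curated RefSeq transcript. For each gene the percentage of its span under peaks was computed in each replicate, and genes were ranked by the lower of both values, named the lower coverage here. A gene without a single peak base pair in either replicate is called bare. Both samples were CMCs from the ventricles of male C57BL/6J mouse embryos at E14.5, and the labels give no treatment or transgene for them. The cells were enriched after collagenase digestion by low-speed centrifugation and by letting non-myocytes adhere to dishes, which leaves a share of other heart cells. In hMeDIP an antibody pulls down sonicated DNA that bears 5-hmC, and the authors called peaks of the sequenced DNA in each replicate against input. There is 1 group and no contrast, so values are described without tests.

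5-hydroxymethylcytosine (5-hmC) is made when the TET enzymes oxidize 5-methylcytosine, mostly at CpG dinucleotides, the sites where DNA methyltransferases act in mammals. It is an intermediate in the removal of DNA methylation and it can also persist, and it is known to collect in the bodies of active genes and at enhancers. In the embryonic ventricle CMCs contract and still divide, with sarcomere, ion channel and calcium handling genes in use.

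Replicate 1 held 132610 peaks and replicate 2 held 139706 peaks, with a mean width of 675 and 685 bp. Of the peaks on autosomes, 52.4% in replicate 1 and 49.0% in replicate 2 touched a tested gene. A peak of the median width fills 10% of a gene of 5 kb and 0.501% of a gene of 100 kb, so the values of short genes rise in coarse steps. The lists hold no read numbers and the same score for every peak, so the depth behind a value cannot be read from them and the strength of a peak is not measured.

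Peaks lay on most genes, mostly in small amounts. Of the 15498 genes, 10150 (65.5%) were under peaks of both replicates, 2530 (16.3%) were bare, 1553 had peaks in replicate 1 only and 1265 in replicate 2 only. The median gene had 3.73% of its span under peaks in replicate 1 and 3.63% in replicate 2, and the median lower coverage was 2.28%. High values were rare. A lower coverage of at least 10% was reached by 1957 genes (12.6%), one of at least 30% by 83 genes and one of at least 50% by 5 genes.

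The stretches shown next come from 6 genes the description turns on, each from the longest piece of the gene that lay under peaks of both replicates and outside untranslated exons. In Ankrd23 and Adcy6 a wider region under both, of 2326 and 2224 bp, was cut by untranslated exons to pieces of at most 1122 and 1301 bp, so the next region, with a piece of 1271 and 1901 bp, was taken. The genes are an ankyrin repeat gene that leads all genes, an adenylyl cyclase, a zinc finger factor and 3 sarcomere genes. Each stretch is the middle of that piece, written 5′ to 3′ on the strand of the gene from the RefSeq copy of GRCm38 (mm10), with CpG dinucleotides in capitals. The Ankrd23 stretch is chr1:36534973-36535172 on the minus strand, centred in intron 1. The Adcy6 stretch is chr15:98601412-98601611 on the minus strand, centred in intron 1. The Casz1 stretch is chr4:148949687-148949886 on the plus strand, centred in intron 20. The Myh6 and Myh7 stretches are chr14:54949423-54949622 and chr14:54973679-54973878, both on the minus strand and centred in coding exons 29 and 35. The Tnnt2 stretch is chr1:135848265-135848464 on the plus strand, centred in intron 8.
Ankrd23: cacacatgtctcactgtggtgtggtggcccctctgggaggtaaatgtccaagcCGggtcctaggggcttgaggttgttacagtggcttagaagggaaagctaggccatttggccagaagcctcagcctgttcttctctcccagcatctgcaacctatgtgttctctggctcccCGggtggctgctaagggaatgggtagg
Adcy6: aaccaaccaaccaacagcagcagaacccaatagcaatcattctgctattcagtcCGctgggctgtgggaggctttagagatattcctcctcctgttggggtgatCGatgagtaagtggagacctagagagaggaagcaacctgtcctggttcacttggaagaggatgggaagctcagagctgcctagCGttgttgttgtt
Casz1: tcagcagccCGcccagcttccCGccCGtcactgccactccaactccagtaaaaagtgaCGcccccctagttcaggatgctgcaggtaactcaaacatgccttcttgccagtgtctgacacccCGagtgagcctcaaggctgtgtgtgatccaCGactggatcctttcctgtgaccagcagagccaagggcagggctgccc
Myh6: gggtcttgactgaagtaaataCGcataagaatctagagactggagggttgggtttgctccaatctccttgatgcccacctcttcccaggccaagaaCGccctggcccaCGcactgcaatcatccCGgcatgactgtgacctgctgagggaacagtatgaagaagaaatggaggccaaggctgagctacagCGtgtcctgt
Myh7: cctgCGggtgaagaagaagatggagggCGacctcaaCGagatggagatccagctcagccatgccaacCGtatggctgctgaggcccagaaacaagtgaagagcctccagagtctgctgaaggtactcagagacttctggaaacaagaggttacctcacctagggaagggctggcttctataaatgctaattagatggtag
Tnnt2: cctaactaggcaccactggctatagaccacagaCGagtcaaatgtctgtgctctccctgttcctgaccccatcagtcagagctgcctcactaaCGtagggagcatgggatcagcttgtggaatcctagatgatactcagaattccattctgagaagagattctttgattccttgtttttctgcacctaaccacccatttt

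The stretches hold 2 to 6 CpG dinucleotides in 200 bases. The whole regions under both replicates that they come from had 1.65 CpG per 100 bp in Ankrd23, 2.10 in Adcy6, 3.63 in Casz1, 2.86 in Myh6, 2.26 in Myh7 and 2.15 in Tnnt2. The autosomes as a whole had 0.851 per 100 bp. In Casz1, Myh6, Myh7 and Tnnt2 the region was richer in CpG than its gene, which had 2.07, 1.66, 1.55 and 1.24 per 100 bp, and in Ankrd23 and Adcy6 it was not, with 1.95 and 2.26 in the gene.

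The 250 bases before the start of Pln and of Vim are shown as well, which are genes without a peak in either replicate. These stretches lie outside the gene spans, unlike those above, so the CpG counts come from unlike places. Whether the Vim stretch lay under a peak was not tested. Pln encodes phospholamban, the inhibitor of the sarcoplasmic calcium pump, and Vim the intermediate filament protein of mesenchymal cells. The sequences are those of the RefSeq promoter table for the same build, at chr10:53337436-53337685 and chr2:13574061-13574310, both on the plus strand.
Pln: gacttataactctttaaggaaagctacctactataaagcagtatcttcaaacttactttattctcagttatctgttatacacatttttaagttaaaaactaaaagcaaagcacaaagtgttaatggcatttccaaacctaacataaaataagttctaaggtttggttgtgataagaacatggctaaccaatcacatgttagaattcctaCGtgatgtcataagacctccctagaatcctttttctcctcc
Vim: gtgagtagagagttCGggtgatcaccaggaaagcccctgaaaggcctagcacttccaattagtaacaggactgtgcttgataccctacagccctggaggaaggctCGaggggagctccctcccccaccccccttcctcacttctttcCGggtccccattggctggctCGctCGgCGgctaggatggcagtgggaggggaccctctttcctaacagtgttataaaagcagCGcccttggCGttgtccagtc

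The Vim stretch holds 8 CpG dinucleotides and the Pln stretch 1. The span of Vim had 1.74 CpG per 100 bp, more than that of Myh6, Myh7 or Tnnt2.

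Ankrd23 led all genes. It encodes an ankyrin repeat protein of the muscle Z-disc and I-band that is tied to the stretch response. It lies at chr1:36530193-36536556 and spans 6.36 kb, of which 74.4% was under peaks in replicate 1 and 69.4% in replicate 2. The same base pairs were covered in both lists over 67% of the gene, in 2 regions of 2326 and 1940 bp. The next was Calm3, 1 of the genes for calmodulin, the calcium sensor of the cell, with 63.1 and 73.1%. Slc38a2, a neutral amino acid transporter, followed with 75.0 and 54.4%. 2700081O15Rik had 52.6 and 53.4%, Ppil1, a cyclophilin of the spliceosome, 53.7 and 51.6%, and Gigyf1, a translation regulator that binds GRB10, 57.4 and 46.8%. All 20 leading genes had at least 38.5% in each replicate, and the lower coverage fell from 69.4 to 38.5% along them.

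The roles of the 20 leading genes were mixed. Signalling enzymes and a membrane scaffold were Adcy6, the adenylyl cyclase that makes cyclic AMP in CMCs (48.4 and 44.3%), Akt1, the kinase of insulin and growth factor signalling (41.7 and 47.9%), Dyrk2, a dual-specificity kinase (49.2 and 43.2%), and Palm3 (45.7 and 54.4%), a paralemmin. Membrane traffic was represented by Snx18, a sorting nexin (52.0 and 45.4%), and Vps37b, a subunit of ESCRT-I (47.6 and 42.3%). Scd2, a stearoyl-CoA desaturase that makes monounsaturated fatty acids, had 40.1 and 44.0%. Casz1, a zinc finger factor that CMCs need to form the heart, had 41.2 and 40.2% of its 151 kb under peaks and was the longest of the 20. It lies at chr4:148804392-148954892. Its peaks numbered 43 and 42, and 36 regions of it lay under both lists, 34 of them centred in introns. The other leaders were Cd37, a tetraspanin of lymphocytes, Ccdc85c, Iffo1, Caskin2, Gpc2, a glypican, and Wdr6, with lower coverages of 43.4, 42.3, 41.5, 40.6, 38.8 and 38.5%. The spans of 2700081O15Rik, Palm3 and Wdr6 overlap another protein-coding gene, so part of their peaks belongs to either gene.

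**Figure D1:**
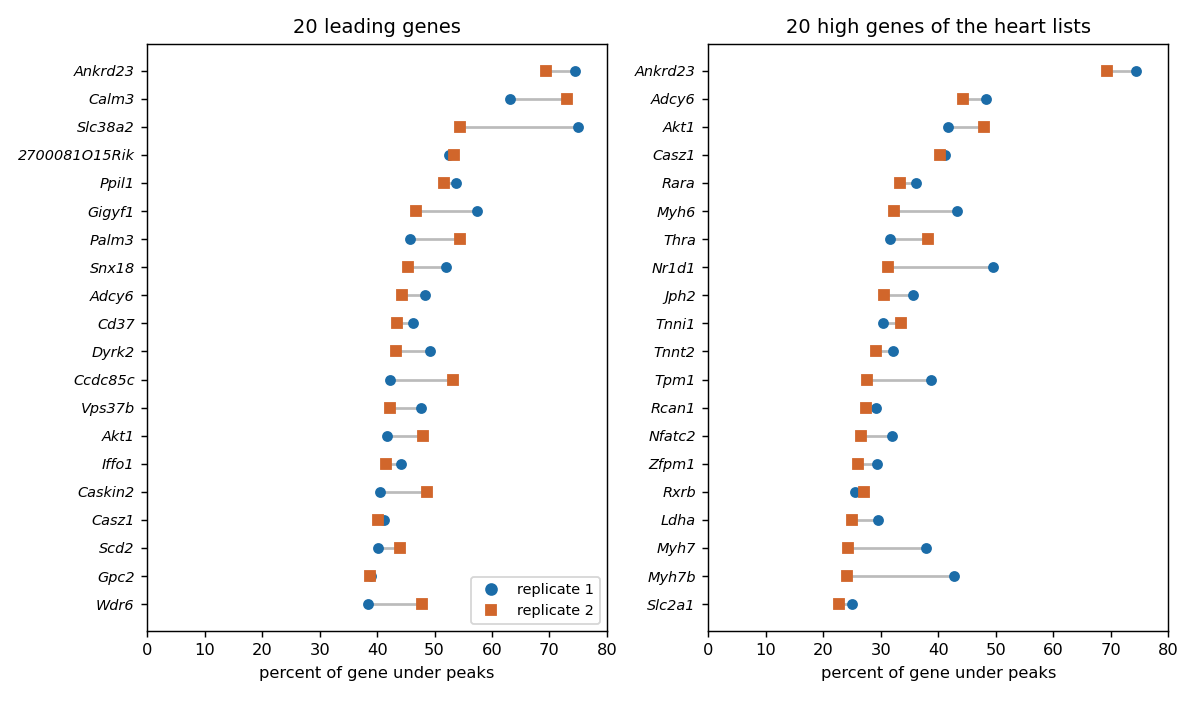
Percentage of the gene span under peaks (x axis) for the 20 genes with the highest lower coverage (left) and 20 high genes of the heart gene lists (right), with a circle for replicate 1, a square for replicate 2 and a line between them. Ankrd23 stands apart at 74.4 and 69.4%, and the pairs of Slc38a2 (75.0 and 54.4%) and Casz1 (41.2 and 40.2%) show how far replicates can differ or agree.

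The leaders were also read within classes of gene length. Among genes of 20 to 50 kb Snx18, Vps37b and Akt1 led. Among those of 50 to 100 kb these were Ccdc85c, Ski, a repressor of SMAD signalling (42.3 and 36.9%), and Bmp7, a bone morphogenetic protein (35.5 and 39.9%). Among those of 100 to 200 kb Casz1 stood first, before Mtss1, a membrane-bending actin regulator (41.3 and 37.2%). Genes of 200 kb and more were led by Etv6, an ETS family repressor (30.4 and 24.7%), Foxn3 (25.1 and 22.8%) and Tanc1 (29.0 and 22.6%). In genes of 5 to 10 kb the first 3 were Ankrd23, Calm3 and 2700081O15Rik, and in those of 10 to 20 kb Slc38a2, Ppil1 and Adcy6.

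Sarcomere and contractile genes had the highest median of the 31 named gene lists. Of 25 listed, 5 are shorter than 5 kb, and of the 20 tested 19 were under peaks of both replicates and 0 were bare, beside 65.5% and 16.3% of all genes. The median lower coverage was 12.2%, beside 2.28% for all genes, and 11 of 20 reached 10%, beside 12.6% of all genes. The medians of single replicates were 14.54% and 18.4%, beside 3.73% and 3.63% for all genes; the lower coverage can only be at or below both. With every peak set to the median width the median was 7.31% and still the highest, and without genes that overlap another gene it was 8.87%, at place 5 of 31. Myh6, the alpha myosin heavy chain, led with 43.2 and 32.4%, then came Tnni1, the slow skeletal troponin I used in the fetal heart, with 30.4 and 33.6%, and Tnnt2, cardiac troponin T, with 32.1 and 29.1%. Myh7, the beta myosin heavy chain of the fetal ventricle, had 37.9 and 24.3%. Myl4, the atrial and fetal essential light chain, had 16.9 and 19.2%. Myl3, the ventricular essential light chain, had 8.18% in replicate 1 and 33.1% in replicate 2. Myl3 spans 6.13 kb, and its single peak in replicate 1 stood against 3 in replicate 2. Actc1, cardiac actin, was the 1 tested sarcomere gene under a peak of a single replicate, with 8.96 and 0%.

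Myh6 (chr14:54941921-54966607) and Myh7 (chr14:54970684-54994626) lie in a row, 4.08 kb apart, and encode closely similar proteins, so reads that fit both copies cannot be told apart and fall under the authors' mapping quality filter. The part of that filter in their values was not tested. Myh6 had 7 regions under both lists, 6 centred in introns, and Myh7 had 6, of which 4 were centred in coding exons. Tnni1 and Tnnt2 lie on chromosome 1 with Lad1, an anchoring filament protein gene, between them. The 3 genes in that row all ranked among the first 500, Lad1 with 38.9 and 26.0%.

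**Figure D2:**
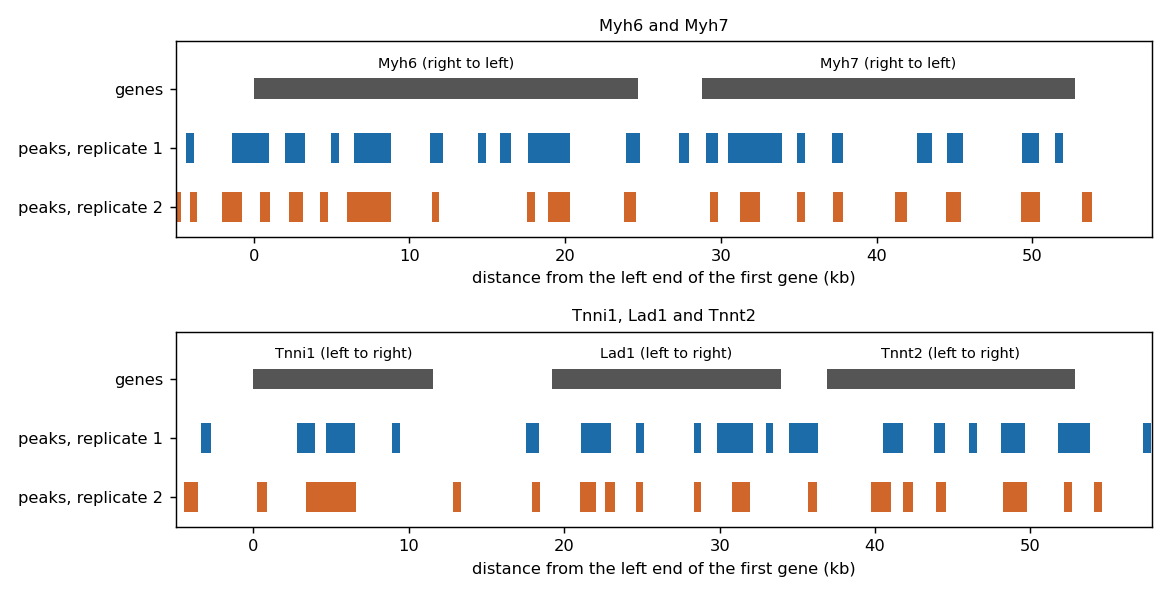
Peaks of replicate 1 (upper blocks) and replicate 2 (lower blocks) around Myh6 and Myh7 and around Tnni1, Lad1 and Tnnt2, as distance along the chromosome in kb from the left end of the first gene, with gene spans in grey and the direction of transcription beside the name. Myh6 has 7 regions and Myh7 has 6 regions where blocks of both replicates lie over each other, and other blocks appear in 1 replicate only.

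Proteins of the Z-disc, with Xin-repeat proteins and muscle chaperones, had a median lower coverage of 7.79%, with 11.04% in replicate 1, 12.9% in replicate 2 and 5.13% among genes of at least 20 kb. Of 24 tested, 22 were under peaks of both replicates, 0 were bare and 11 reached 10%, beside 65.5, 16.3 and 12.6% of all genes. Behind Ankrd23 came Bag3, a chaperone partner that keeps Z-discs intact (37.3 and 22.4%), and Ldb3, the Z-disc protein Cypher (20.9 and 19.4%). Xirp2, a large Xin-repeat actin-binding protein, had 1.86% in each replicate, below the median of all genes.

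Genes for natriuretic peptides, their receptors and processing enzymes and for secreted cardiac factors had a median lower coverage of 11.9%. Of 15 tested, 14 were under peaks of both replicates and 9 reached 10%, beside 65.5 and 12.6% of all genes. Igf1r, the IGF-1 receptor, had 26.2 and 21.1%, Vegfa, the vascular growth factor, 34.4 and 19.7%, and Furin, a proprotein convertase, 18.8 and 18.8%. Among the 8 genes of this list with at least 20 kb the median was 3.87%, beside 2.77% for all 9093 genes of that length. With every peak at the median width it was 6.74% over the 15 genes, beside 1.98% for all genes. The peptide genes Nppa and Nppb are shorter than 5 kb and were not ranked.

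Ion channels, pumps and gap junction genes were under peaks of both replicates in 27 of 27, with a median lower coverage of 8.56%. In this list 11 genes reached 10%. All genes had 65.5% under both and 12.6% at 10% or more. Gja5, connexin 40, had 22.6 and 24.5%. Atp1b1, the beta subunit of the sodium pump, had 26.7 and 21.1%. Genes of calcium release and reuptake had a median of 6.27%. At the median peak width these medians were 5.25% and 3.91%, beside 1.98% for all genes. Jph2, which ties the T-tubule to the sarcoplasmic reticulum, led them with 35.7 and 30.6%, then Camk2a, a calmodulin-dependent kinase, with 20.3 and 16.5%, and Calm2 with 22.1 and 14.6%. In that list Pln and Fkbp1b, which encodes a stabilizer of the ryanodine receptor, were bare. Ryr2, the ryanodine receptor itself, had 6.06 and 6.05% of its 554 kb.

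Cardiac transcription factors and cofactors had a median lower coverage of 8.79% and a median span of 52.0 kb. Of 28 tested, 23 (82.1%) were under peaks of both replicates. All genes had 65.5%, and all genes of at least 20 kb 81.4%. In the list 12 reached 10%, beside 12.6% of all genes. Casz1 led. Zfpm1, a GATA cofactor, had 29.4 and 26.0%, and Prdm16, a zinc finger methyltransferase family member, had 23.1 and 21% of its 321 kb. Gata6 had 25.3 and 16.2%, and Gata4 had 13.0 and 6.51%. Gata5, of the same zinc finger family, was bare. Mef2a and Mef2c, MADS-box factors of muscle, had 6.72 and 5.20% and 6.27 and 4.33%. The list also holds the splicing factor Rbm20 and the ankyrin repeat gene Ankrd2.

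Hypertrophic and adrenergic signalling genes were under peaks of both replicates in 42 of 43, with a median lower coverage of 6.48%. In this list 17 reached 10%, beside 12.6% of all genes. Its genes are long, with a median span of 109 kb, and of all genes of 100 to 200 kb 98.0% were under peaks of both. After Adcy6 and Akt1 came Rcan1, a calcineurin inhibitor, with 29.1 and 27.4%. Genes of the intercalated disc, costamere and dystrophin complex had a median of 5.54%, led by Tln1, talin, with 21.1 and 14.7%, Pkp4, a plakophilin, with 16.2 and 12.6%, and Parva, an integrin-linked parvin, with 12.5 and 13.6%. Dsc2, a desmosomal cadherin of 28.9 kb, was the only bare gene of that list.

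Metabolic genes differed between pathways. Glucose uptake, glycolysis and glycogen genes had a median lower coverage of 5.65%, with 9.45% in replicate 1 and 6.59% in replicate 2. Ldha, lactate dehydrogenase A, had 29.6 and 25.0%, Slc2a1, the glucose transporter of the fetal heart, 24.9 and 22.6%, and Hk1, a hexokinase, 18.8 and 17.2%. Pgam1, a phosphoglycerate mutase, was bare. Fatty acid uptake and oxidation genes had a median of 4.98%, with 8.92% in replicate 1 and 5.49% in replicate 2, and were led by the retinoid X receptors Rxrb (25.5 and 27.0%) and Rxra (30.3 and 17.5%) and by Etfb, an electron transfer flavoprotein subunit (17.2 and 18.2%). Echs1, an enoyl-CoA hydratase, was bare. Ppara, the receptor that turns on fatty acid oxidation genes, had 7.61 and 3.92%.

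TCA cycle and respiratory chain genes had a median lower coverage of 2.52%, beside 2.28% for all genes, with 6.49% in replicate 1 and 3.74% in replicate 2. Of 49 tested, 29 were under peaks of both replicates and 9 were bare, shares of 59.2 and 18.4% beside 65.5 and 16.3% of all genes. Idh3b, of isocitrate dehydrogenase, led with 39.3 and 20.3%, then Atp5a1, of ATP synthase, with 20.1 and 23.0%, and Ndufb9, of complex I, with 19.8 and 17.5%. The spans of Idh3b and Atp5a1 overlap another protein-coding gene. Without overlapping genes the median of the list was 2.14%, below the 2.29% of all genes. Bare were Ndufb3, Ndufs1, Ndufs3 and Ndufv1 of complex I, Sdha and Sdhc of succinate dehydrogenase, Uqcrfs1 of complex III, Cox6c of cytochrome oxidase and Atp5pb of ATP synthase. Another 10 had peaks in replicate 1 only and 1 in replicate 2 only. The 19 genes of the list with at least 20 kb had a median of 2.15%, beside 2.77% of all genes of that length, and 3 of them were bare, beside 6.13% of all.

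With all tested genes used, mitochondrial dynamics, quality control and redox defence genes were the only heart list with a median below that of all genes. It was 1.70%, with 2.86% in replicate 1 and 3.26% in replicate 2. Of 32 tested, 19 (59.4%) were under peaks of both replicates and 9 (28.1%) were bare, beside 65.5 and 16.3% of all genes. The median span of the list was 16.8 kb, and of all genes of 10 to 20 kb 51.2% were under both and 24.1% were bare. Mcu, the mitochondrial calcium uniporter, had 10.5 and 11.4%, Pink1, the mitophagy kinase, 8.78 and 13.9%, and Twnk, the mitochondrial DNA helicase, 25.5 and 7.05%. The bare genes were the chaperones Hspd1 and Hspa9, the protease Clpp, the peroxiredoxins Prdx1 and Prdx3, the superoxide dismutases Sod1 and Sod2, and Tfam and Polg2, which maintain mitochondrial DNA. In genes of at least 20 kb the list had a median of 2.82%, beside 2.77% for all genes of that length, and 0 of 14 were bare.

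Thyroid, corticoid, retinoid and oestrogen receptors with their cofactors had a median lower coverage of 2.97%, with 3.69% in replicate 1, 4.62% in replicate 2 and wide differences between members. High members were Rara, the retinoic acid receptor alpha (36.1 and 33.4%), and Thra, the thyroid hormone receptor alpha (31.5 and 38.2%). Nr4a2, Nr2f1 and Nr2f2, orphan receptors, were bare.

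Over the 13 heart lists 387 genes were tested, each counted once. Of these 323 (83.5%) were under peaks of both replicates, 27 (6.98%) were bare and 109 (28.2%) reached 10%, beside 65.5, 16.3 and 12.6% of all genes. Their median span was 32.2 kb, beside 25.3 kb for all genes. In 12 of the 13 lists the median lower coverage was above that of all genes. A median above all genes was not particular to heart lists. Of the named lists that hold neither heart nor marker genes, only those of cell cycle and of replication and repair were below. Splicing genes had 4.91%, chromatin genes 4.40% and ubiquitin and autophagy genes 2.41%, beside 2.28% of all genes. The nearest peak to the 27 bare heart genes lay 0.144 to 34.3 kb from the gene. For Pln it lay 1.78 kb away in replicate 1 and 18.7 kb in replicate 2, and for Ndufb3 0.202 and 0.144 kb.

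**Figure D3:**
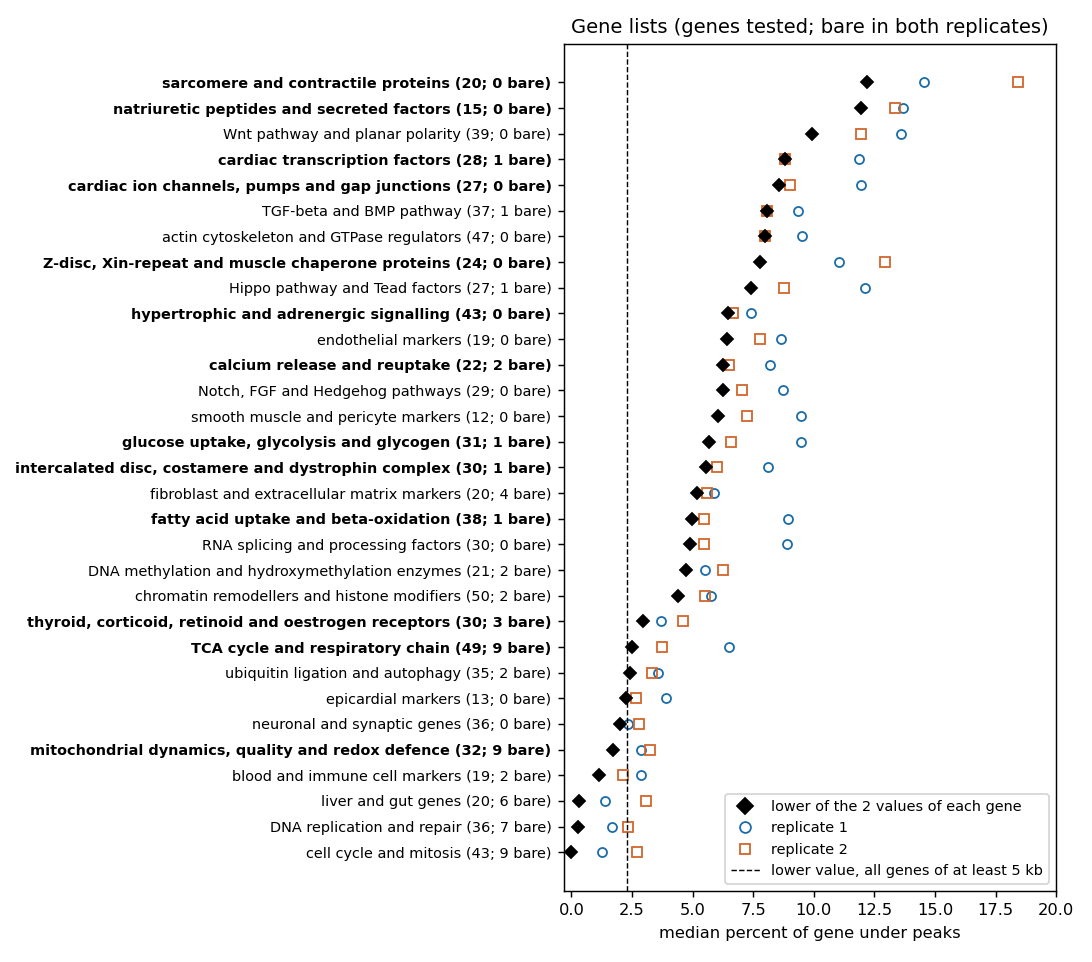
Median percentage of the gene span under peaks for the 31 named gene lists, heart lists in bold, as the lower of both values of each gene (diamonds), in replicate 1 (circles) and in replicate 2 (squares), with the number of genes tested and of bare genes. The sarcomere list stands highest at 12.2% and the cell cycle list lowest at 0%, and the dashed line marks 2.28% for all genes.

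Developmental signalling genes ranked beside the heart lists. The Wnt pathway and planar polarity list had a median lower coverage of 9.93%, beside 2.28% for all genes. In it 38 of 39 were under peaks of both replicates and 19 (48.7%) reached 10%, beside 65.5 and 12.6% of all genes. Celsr2, a planar polarity cadherin, had 23.7 and 24.8%, Ror2, a Wnt5a receptor, 28.7 and 20.7%, and Tcf7, a Wnt effector, 22.7 and 20.4%. The TGF-beta and BMP list had 8.05%, actin cytoskeleton and GTPase regulators 7.99%, and the Hippo list 7.4%, which was 12.1% in replicate 1. The Notch, FGF and Hedgehog list was lower, at 6.24%, with 7 of 29 (24.1%) at 10% or more. Semaphorins and plexins had 9.02%, with 27 of 27 under peaks of both replicates, and 5.14% at the median peak width. These lists hold long genes, with medians of 40.2 to 93.3 kb. Under peaks of both replicates were 69.6% of all genes of 20 to 50 kb and 88.9% of those of 50 to 100 kb.

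Genes of dividing cells had low medians. Cell cycle and mitosis genes had a median lower coverage of 0%, with 21 of 43 (48.8%) under peaks of both replicates and 9 (20.9%) bare, beside 65.5 and 16.3% of all genes. The median was 1.28% in replicate 1, 2.70% in replicate 2 and 1.60% among genes of at least 20 kb, where all genes had 2.77%. In the list 3 (6.98%) reached 10%, beside 12.6% of all genes. Among its 23 genes of at least 20 kb 3 did so, beside 12.7% of all genes of that length. E2f2 and E2f3, which drive entry into S phase, had 18.9 and 14.8% and 13.4 and 17.2%, and Ccnd3, a D-type cyclin, 10.2 and 12.9%. DNA replication and repair genes had a median of 0.252%, with 18 of 36 (50%) under peaks of both replicates, 7 (19.4%) bare and 0 at 10%, beside 65.5, 16.3 and 12.6% of all genes. It was 1.68% in replicate 1, 2.32% in replicate 2, 0.635% among genes of at least 20 kb and 0% without overlapping genes. Their highest members were Rpa1, a single-strand binding protein (11.5 and 9.62%), Cdc6, a licensing factor (17.1 and 8.4%), and Gins2 of the replicative helicase (6.41 and 10.6%). Their median spans, 23.8 and 28.1 kb, were close to that of all genes.

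Several gene families held more bare genes than the 16.3% of all genes. Of 126 vomeronasal receptor genes 81 were bare and 7 were under peaks of both replicates, where all genes had 65.5%. Of 50 C-type lectin and killer cell receptor genes 27 were bare and 9 were under both. Of 39 Hox genes listed 30 are shorter than 5 kb and were not tested, and of the other 9, 7 were bare and 2 were under both. Shares were less low in 3 other families. Of 363 genes named Zfp 122 were bare and 143 were under both. Of 50 mitochondrial ribosomal protein genes these were 20 and 16, and of 38 proteasome genes 15 and 12. The length limit also kept out 223 of 349 vomeronasal, 28 of 78 mitochondrial ribosomal and 10 of 48 proteasome genes. Median spans were 7.68 kb for Hox, 9.53 kb for mitochondrial ribosomal and 14.1 kb for lectin genes. They were 14.3 kb for proteasome, 16.5 kb for Zfp and 23.1 kb for vomeronasal genes. Of all genes of 5 to 10 kb 39.5% were bare and 32.0% were under both, near the 40 and 32% of mitochondrial ribosomal genes. Of all genes of 10 to 20 kb these were 24.1 and 51.2%. Vomeronasal, lectin and Zfp genes have near-identical copies, and reads of low mapping quality were removed before peaks were called. The part of that filter in these values was not tested.

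The longest bare gene spanned 118 kb. The 10 longest were Sycp1, of the meiotic synaptonemal complex, Ankhd1, Skint4, Ralgapb, Zfp280d, Gm17330, Ccl21b, a chemokine with copies nearby, Gm4788, Sdhaf3, an assembly factor of succinate dehydrogenase, and Gm10634. No gene of 200 kb or more was bare, and 1 of 1309 genes of 100 to 200 kb was.

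Markers of other heart cells were checked in the same way, with the reservation that a peak on a gene does not report its expression. Of all genes 65.5% were under peaks of both replicates, 16.3% were bare and 12.6% reached 10%, with a median lower coverage of 2.28%. Of 5 CMC markers tested 4 were under peaks of both replicates, with a median lower coverage of 16.9%. All 6 endothelial markers were under peaks of both replicates, from 1.94 to 17.7% in replicate 1 and from 2.99 to 17.5% in replicate 2, with a median of 10.2%. Fibroblast markers gave 4 of 7, a median of 1.09%, and 2 bare genes, Vim and Col1a2, while Col1a1 had 13.0 and 12.7%. Tcf21 is shorter than 5 kb and held no peak in either replicate. Smooth muscle markers gave 3 of 4 with a median of 4.17%, epicardial markers 3 of 4 with 2.14%, and blood and immune markers 3 of 4 with 1.24%. The blood marker Cd68, shorter than 5 kb, had 65.2 and 100%, and Klf1, also shorter, held no peak. The CMC marker Myl7, shorter too, had 23.3 and 0%. Wider lists gave other values. The endothelial list had 17 of 19 (89.5%) under both replicates and a median of 6.42%, with Esam and Sox17 under peaks of replicate 2 only. The fibroblast and matrix list had 15 of 20 (75%), 4 bare (20%) and 5 (25%) at 10% or more. Its median was 5.17%, above the 2.28% of all genes and unlike the 7 markers. The smooth muscle list had 11 of 12 (91.7%) and 6.04%, and the epicardial list 12 of 13 (92.3%) and 2.24%. The blood list, led by Ank1, Spi1 and Runx1, had 11 of 19 (57.9%) and 1.15%. The liver and gut list, led by Vil1 and Cdx1, had 10 of 20 (50%) and 0.316%. Among genes of at least 20 kb the blood list had 2.69% and the liver and gut list 3.97%, beside 2.77% of all genes of that length. The part of other cells in the endothelial and fibroblast values was not tested.

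The 3 TET genes, whose enzymes make 5-hmC, were under peaks of both replicates. These genes span 80.7 to 94.0 kb, and of all genes of 50 to 100 kb 88.9% were under peaks of both. Tet3 had 26.1 and 15.7%, Tet2 7.26 and 5.79% and Tet1 4.72 and 5.30%, so the lower coverage of Tet3 was the highest of the TET genes, and its values did not overlap with those of the other two. In the whole list of DNA methylation and hydroxymethylation genes 17 of 21 (81.0%) were under both and 2 (9.52%) were bare. The median was 4.72%. In all genes these values were 65.5, 16.3 and 2.28%. Mbd4 and Neil1, repair glycosylases, were bare, Dnmt3b, a methyltransferase, had a peak in replicate 1 only and Smug1, a glycosylase, in replicate 2 only. Hif1a, the hypoxia factor, had 2.17% in each replicate, yet no base pair of it was covered in both.

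Replicates agreed moderately, and better in long genes. Over the 15498 genes Spearman's rho of the 2 coverage values was 0.666 and Pearson's r 0.716, across genes, which share libraries and are not independent. In genes of 5 to 10 kb rho was 0.522, 32.0% were under peaks of both replicates and 39.5% were bare. In genes of 200 kb and more rho was 0.939, 99.7% were under peaks of both and 0% were bare. The median absolute difference was 1.78 percentage points, and 10% of genes differed by more than 8.37. Each replicate's first 500 genes had 246 in common, 49.2% of either list. The 500 leaders by the lower coverage ended at 18.35%, where the next gene was within rounding of the last.

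At the level of base pairs agreement was lower. Of all gene base pairs under a peak in either replicate, 23.0% were under peaks in both. Of the 10150 genes with peaks in both replicates 1978 had not 1 base pair in common, and the median gene among the 10150 shared 21.8% of its covered base pairs. In the 500 leaders the median was 38.7%, which the choice of genes high in both replicates raises by itself. Among genes of at least 20 kb Smad7, an inhibitory SMAD (48.6 and 21.2%), Ptp4a3, a phosphatase (43.6 and 19.6%), and Synpo, synaptopodin (38.0 and 14.1%), were the most above in replicate 1. Abcg5, a sterol transporter (7.44 and 27.8%), Dipk1c (5.66 and 24.3%) and Myl2, the ventricular regulatory light chain (12.2 and 30.8%), were the most above in replicate 2.

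**Figure D4:**
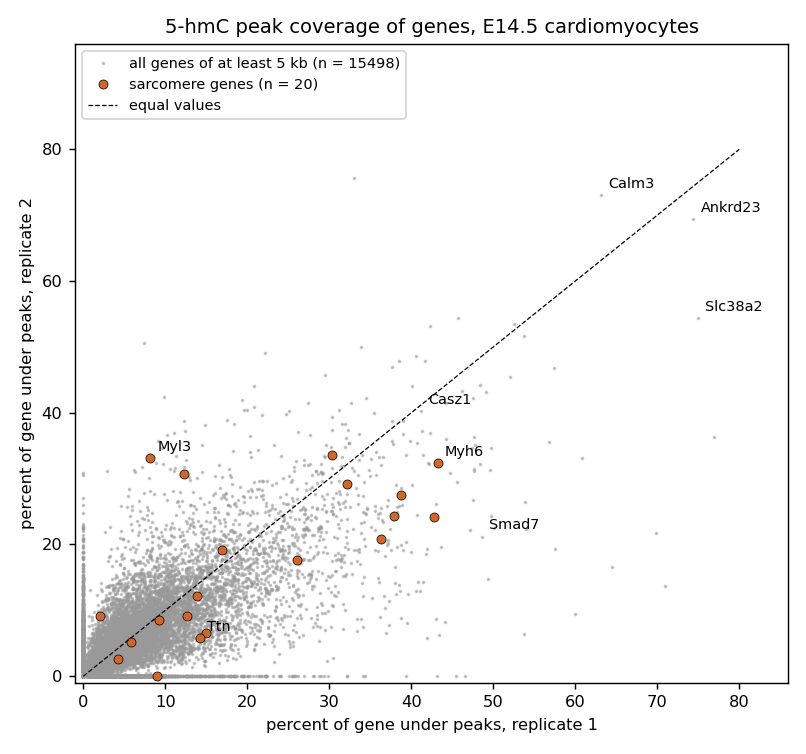
Percentage of the gene span under peaks in replicate 1 (x axis) and replicate 2 (y axis), with 1 point for each of the 15498 genes, sarcomere genes as larger points and a dashed line at equal values. Points on the axes have peaks in 1 replicate only, and rho is 0.666; Myl3 (8.18 and 33.1%) and Smad7 (48.6 and 21.2%) lie far from the line.

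Coverage ran along the whole gene and was lower at its borders. Averaged over all genes, the first kb before the start was covered by 4.99% in replicate 1 and 4.86% in replicate 2. Part 2 of 10 equal parts of the gene was highest, at 6.66 and 6.19%, and the kb after the end lowest, at 4.43 and 4.44%. The 500 leaders had 9.37 and 9.82% before the start, 19.2 and 17.8% in part 1, 34.7 and 31.4% in part 4 and 14.55 and 11.7% after the end. That the bodies of the leaders were high, and above the flanks outside the ranked span, follows from how they were chosen. The low value of part 1 beside part 4, both inside the span, is not fixed by it. Exonic base pairs were covered by 7.09 and 5.83% and intronic ones by 5.17 and 5.13%.

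**Figure D5:**
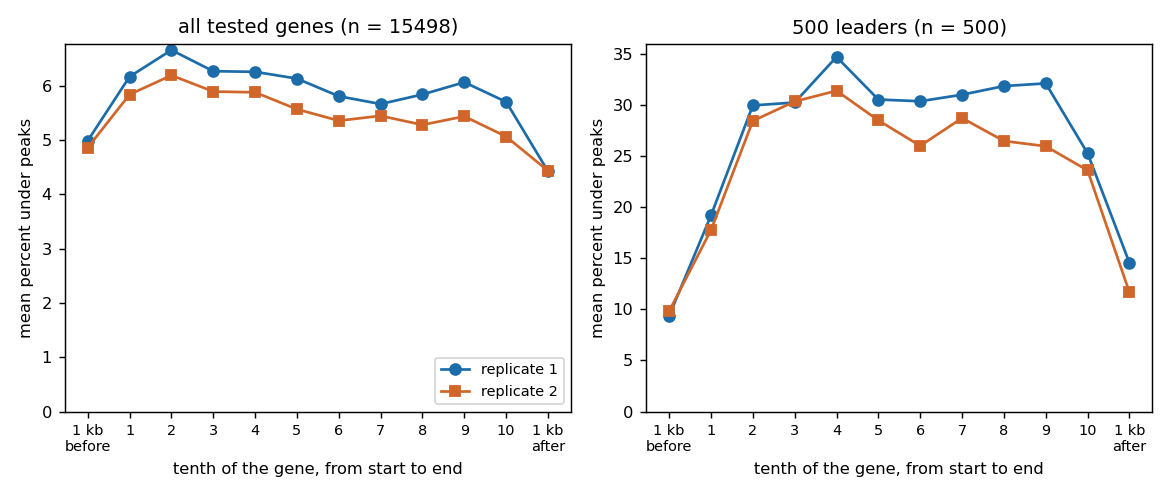
Mean percentage under peaks (y axis, from 0) in the kb before the gene, in 10 equal parts from start to end and in the kb after it, for all 15498 genes (left) and the 500 leaders (right), with circles for replicate 1 and squares for replicate 2. In the leaders coverage rises from 19.2 and 17.8% in part 1 to 34.7 and 31.4% in part 4. Their step between flanks and gene follows from how they were chosen.

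Covered genes were richer in CpG and GC and poorer in repeats. In 5 groups of equal size by CpG density, from 0.631 to 2.01 CpG per 100 bp at the median, the median lower coverage went from 0.452 over 2.05, 3.49 and 4.38 to 5.06%. By GC content in 5 groups it went from 0.533 to 6.34%, and by repeat content from 3.81% in the lowest to 0.815% in the highest. Spearman's rho across genes with the lower coverage was 0.324 for CpG density, 0.382 for GC content, 0.264 for length and -0.209 for repeat content. The share of bare genes did not follow the same course, with 28.9% in the group lowest in CpG density, 11.6% in the middle group and 15.6% in the highest. In 5 groups by length 38.8% were bare in the shortest and 0.549% in the longest. Mean coverage in these 2 groups was 6.61 and 5.91% in replicate 1 and 5.63 and 5.75% in replicate 2. The 500 leaders had a median of 1.85 CpG per 100 bp and 17% repeats, all genes 1.19 and 23.9%, and bare genes 1.03 and 24.3%. The replicates parted with composition. In the group richest in CpG the mean coverage was 11.1% in replicate 1 and 9.39% in replicate 2, and in the poorest 1.57 and 1.72%. The cause was not tested.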

How the data were processed

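DNA of E14.5 CMCs was sonicated, precipitated with a 5-hmC antibody and sequenced by the authors, in 2 biological replicates. Per the study's methods and the labels, reads were aligned to mm10 with BWA 0.7.4-r385, filtered with MarkDuplicates of Picard, reads of mapping quality below 10 were removed and peaks were called for each replicate against input with HOMER in histone mode. The deposited lists give chromosome, start and end of each peak; the deposited score is 1 throughout and was not used. Depth is not given in the lists.

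Peaks were intersected with gene spans from the first start to the last end of curated RefSeq transcripts (GRCm38, annotation release 108). Coverage is the percentage of the span under peaks. Python 3.11.15, numpy 2.4.6 and scipy 1.17.1 were used. The code, tested on simulated data, gave the same covered base pairs as bedtools 2.31.1 in 2000 of 2000 genes. CpG, GC and soft-masked bases were counted in the reference. Promoter sequences came from a RefSeq table.

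The members and gene lists were chosen with earlier results of these data known. Named are the 20 leading genes, the first 3 of each length class, of each heart list and of each other list whose median was among the upper or lower 5, heart genes bare in both replicates, the 10 longest bare genes, the 3 largest replicate differences in each direction among genes of at least 20 kb and the genes the study names. A list of cell type markers was named as well. Some genes that this rule names are not reported here. Lad1, Ryr2, Esam, Sox17, Mbd4, Neil1, Dnmt3b, Smug1 and the runs and short genes in the closing section were named after their values were seen. Of the listed symbols 1, Diap2, matched no gene, and genes on the X chromosome were left out. Alternatives were other gene models, lengths, gene parts, peak widths, peak numbers and rank measures, and each replicate left out.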

Additional observations from a re-analysis of the deposited data

How the results depend on the processing

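No paired analysis was possible because 1 group with 2 replicates was described. The number of genes under peaks of both replicates, 10150, ranged from 7405 to 10719 over the other gene models, lengths, gene parts, peak widths and peak numbers. The 2530 bare genes became 3829 among genes of at least 2 kb and 557 among those of at least 20 kb, which are other sets of genes, and 3795 to 4083 when only 1 replicate was asked for. The rho of 0.666 between replicates was 0.667 with predicted transcripts, 0.675 with GENCODE genes, 0.628 from 2 kb, 0.787 from 20 kb, 0.658 without the first kb, 0.672 outside repeats, 0.667 without overlapping genes, 0.619 with every peak at the median width and 0.655 with equal peak numbers. The median lower coverage of 2.28% was 2.0, 1.74, 2.77, 2.09, 2.15, 1.98 and 2.15% with GENCODE genes, from 2 kb, from 20 kb, without the first kb, outside repeats, at the median width and with equal peak numbers, and 3.63 to 3.73% in single replicates. The 246 leaders shared by both replicates became 145 at the median peak width, and the 23.0% of shared base pairs became 15.9% there, 23.1% outside repeats, 23.1% without overlapping genes and 22.3% with equal peak numbers. Of the 500 leaders 284 remained when ranked by peaks per 10 kb, 263 from 20 kb and 297 at the median width, and 357 to 472 in the other alternatives. Heart lists above all genes numbered 11 or 12 of 13 in each setting tried for lists, and the sarcomere list ranked first except without overlapping genes, where it took place 5 of 31 at 8.87%. The lists used here give no depth, and in short genes a single peak can decide the value.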

Other observations

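Some leading genes sat beside each other. Among the 500 leaders there were 48 adjacent pairs of tested genes, and 15 genes formed 5 runs of 3, among them Speg, a muscle kinase, with Gmppa and Asic4, and Ptpn14, a Hippo regulator, with Smyd2, a methyltransferase, and Prox1, a homeobox factor of lymphatic and heart cells. The row Slc38a1, Slc38a2 and Slc38a4 consists of amino acid transporters of 1 family, with lower coverages of 20, 54.4 and 20.1%. The other rows were Tnni1 with Lad1 and Tnnt2, and Bahcc1 with Fscn2 and Faap100. By chromosome the median lower coverage was highest on chromosome 10, at 3.84%, and lowest on chromosome 13, at 1.33%, and 25.7% of the genes on chromosome 14 and 23.2% on chromosome 13 were bare, beside 11.4% on chromosome 10.

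Short heart genes, which the length limit kept out of the ranking, ran from fully free of peaks to mostly covered. Tnni3, cardiac troponin I, of 4.22 kb, had 79.0 and 79.9%, and Cox6a2, a muscle subunit of cytochrome oxidase, 81.9 and 88.7% of 0.932 kb. Kcnj11, the pore of the ATP-sensitive potassium channel, had 46.3 and 56.3%, and Tpi1, triosephosphate isomerase, 48.1 and 49.8%. Nkx2-5 and Hand2, cardiac transcription factors, and Sln, sarcolipin, had 0% in both replicates, and Nppa, the atrial natriuretic peptide, had 0 and 35%. A single peak of the median width would fill more than 10% of each of these genes. They were named after their values were seen.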
